A study of Mus musculus with 6 samples.

Results

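Hox and Cdx genes were examined in ICR mouse embryos of 8.5 days post coitum that had 3 to 4 somites and no circulating blood yet. The members were all probe sets whose only gene symbol in the platform annotation was Hoxa, Hoxb, Hoxc or Hoxd with a number, or Cdx1, Cdx2 or Cdx4. This gave 52 of the 45101 probe sets on each Affymetrix mouse array, for 36 genes: 9 Hoxa, 9 Hoxb, 7 Hoxc, 8 Hoxd and 3 Cdx genes. RefSeq lists 39 Hox genes, and the 6 without such a probe set were not analysed here. Where several probe sets had the same symbol, the brightest one over all arrays stands for the gene. Of the 52 probe sets, 42 reached the minimum mean signal for testing, 21.61, and these covered 31 genes. Hoxb7, Hoxb13, Hoxc13, Hoxd11 and Hoxd12 did not reach it.

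The 6 arrays formed 3 groups of 2: cells labelled Flk1 positive, wild-type (WT) embryos and Flk1 knockout embryos (Flk1 KO). All came from the ICR strain at the same age, and the embryo groups were the embryo proper. Flk1 is the VEGF receptor encoded by Kdr, which marks endothelial cells and their precursors. The design text also names Flk1+/GFP embryos. Neither how the Flk1-positive cells were isolated nor whether they carried a changed Flk1 allele is given in the sources used here, so genotype and cell group cannot be told apart. Nothing in the labels says that arrays of 1 group came from separate embryos. P-values therefore cover the spread between the samples at hand and no more, and that spread may be technical.

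Hox genes encode homeodomain transcription factors that give cells their position along the head-to-tail axis. They lie in clusters in which genes with low paralogue numbers are switched on first and reach farthest forward, while genes with high numbers follow later and stay nearer the tail. The Cdx genes, relatives of caudal, are active in the posterior embryo, activate trunk Hox genes and are also known for their part in the first blood formation. In vessels, Hoxb5 is known as an activator of the Flk1 promoter and Hoxa9 as a factor of endothelial progenitors. Posterior Hoxa genes are known from the allantois, which forms umbilical vessels.

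Kdr followed the labels: its signals were 3309.1 and 3328.3 on the Flk1-positive arrays, 543.9 and 545.5 on the WT arrays and 29.5 and 63.8 on the Flk1 KO arrays. Its difference between Flk1 KO and WT embryos narrowly missed the threshold (limma adjusted p = 0.0516). Arrays of a group correlated at 0.98 to 0.984 over the probe sets tested. On each array 54.3% to 57.9% of the probe sets lay above a background level common to all arrays. That level, a signal of 57.38, came from receptor genes of the nose, and a gene counted as below it in a group where its group mean was. The summed signal of 10 endothelial markers was 52403 to 53011 in Flk1-positive cells, 3628.2 to 3852.7 in WT and 1010.6 to 1021.8 in Flk1 KO embryos. That of 6 primitive blood markers was 43019 to 44771, 485.58 to 990.09 and 156.95 to 282.14 in the same order. Summed signals of 8 gut endoderm markers were 7351.8 to 7873.8, 23526 to 25046 and 21611 to 24740. For the RNA control Tfrc, the log2 signal of the 3' probe set less that of the 5' one was 1.257 to 1.349 on the Flk1-positive arrays and 0.9377 to 1.046 on the rest, and that of Actb was 0.2568 to 0.287 and 0.4695 to 0.5809. The part of cell mixture and RNA quality in the results below was not tested. In whole embryos, fewer cells of a type and less RNA per cell cannot be told apart.

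Promoters are shown for 4 Hox genes whose levels differed in opposite directions between Flk1-positive cells and WT embryos, lower for the first pair and higher for the second. They were chosen after the matches described here were seen. RefSeq promoters (GRCm38.p6) were on hand for 21 of the 36 genes, and each sequence gives the 250 bases before the start of the gene, along its strand, with matches in capitals.
Hoxb1, chr11:96365508-96365757, plus strand: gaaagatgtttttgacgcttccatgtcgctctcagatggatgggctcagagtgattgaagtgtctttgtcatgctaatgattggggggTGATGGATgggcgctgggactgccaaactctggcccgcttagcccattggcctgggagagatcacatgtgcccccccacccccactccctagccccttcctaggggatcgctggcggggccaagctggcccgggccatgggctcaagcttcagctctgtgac
Hoxc4, chr15:103034145-103034394, plus strand: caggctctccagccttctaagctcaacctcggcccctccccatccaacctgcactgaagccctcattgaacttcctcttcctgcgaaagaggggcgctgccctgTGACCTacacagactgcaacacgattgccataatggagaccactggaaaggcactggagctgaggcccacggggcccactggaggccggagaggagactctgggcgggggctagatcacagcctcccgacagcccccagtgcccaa
Hoxd8, chr2:74704365-74704614, plus strand: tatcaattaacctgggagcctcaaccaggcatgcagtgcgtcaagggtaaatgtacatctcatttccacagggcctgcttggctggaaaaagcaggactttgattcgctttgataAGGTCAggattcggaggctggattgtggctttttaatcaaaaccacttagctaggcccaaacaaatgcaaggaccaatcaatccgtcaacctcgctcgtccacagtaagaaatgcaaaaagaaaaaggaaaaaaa
Hoxd10, chr2:74691641-74691890, plus strand: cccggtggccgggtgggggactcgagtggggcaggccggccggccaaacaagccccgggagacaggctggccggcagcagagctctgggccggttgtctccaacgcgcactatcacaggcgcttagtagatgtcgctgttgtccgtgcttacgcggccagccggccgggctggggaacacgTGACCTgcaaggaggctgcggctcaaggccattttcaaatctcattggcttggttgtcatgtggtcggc
Capitals mark a joint Hox and Pbx motif (TGATNNAT) in Hoxb1 and a nuclear receptor half-site (AGGTCA, or TGACCT where it lies on the other strand) in Hoxc4, Hoxd8 and Hoxd10. A Cdx motif (TTTATNG) and an ETS motif (CCGGAAG) were searched as well, all on both strands, and no matches overlapped. Of the 23 member promoters, 3 held the Hox and Pbx motif, 5 the half-site and none the Cdx or ETS motif. Over 32841 promoters of the same length the shares were 7.69%, 14.0%, 9.81% and 6.91%. The half-site occurred in promoters of genes that were higher and of genes that were lower, and a match is a description of letters only. Member promoters had a median of 13 CpG pairs and 58.0% G and C, against 6 and 52.4% over all promoters.

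The first comparison, of Flk1-positive cells with WT embryos, asks which genes differ in level between them. Differences are given on the log2(signal + 21.61) scale, which understates those of dim genes, as value ± SE from limma with 2 arrays a group. Where the dimmer group lay below background, the difference is a bound, "at least N-fold". Of the 31 genes tested, 13 were lower and 6 higher in Flk1-positive cells, which is 41.9% and 19.4%. Over all 15205 genes tested, 17.5% were lower and 12.2% higher. The median difference of the 31 was -0.17, against -0.08 over all genes. The calls were spread unevenly over the paralogue groups. All 3 Cdx genes and 7 of the 10 genes of paralogue groups 1 to 4 were lower and none of these was higher. In groups 9 to 13, 4 of 10 genes tested were higher and 1 lower.

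**Figure D1:**
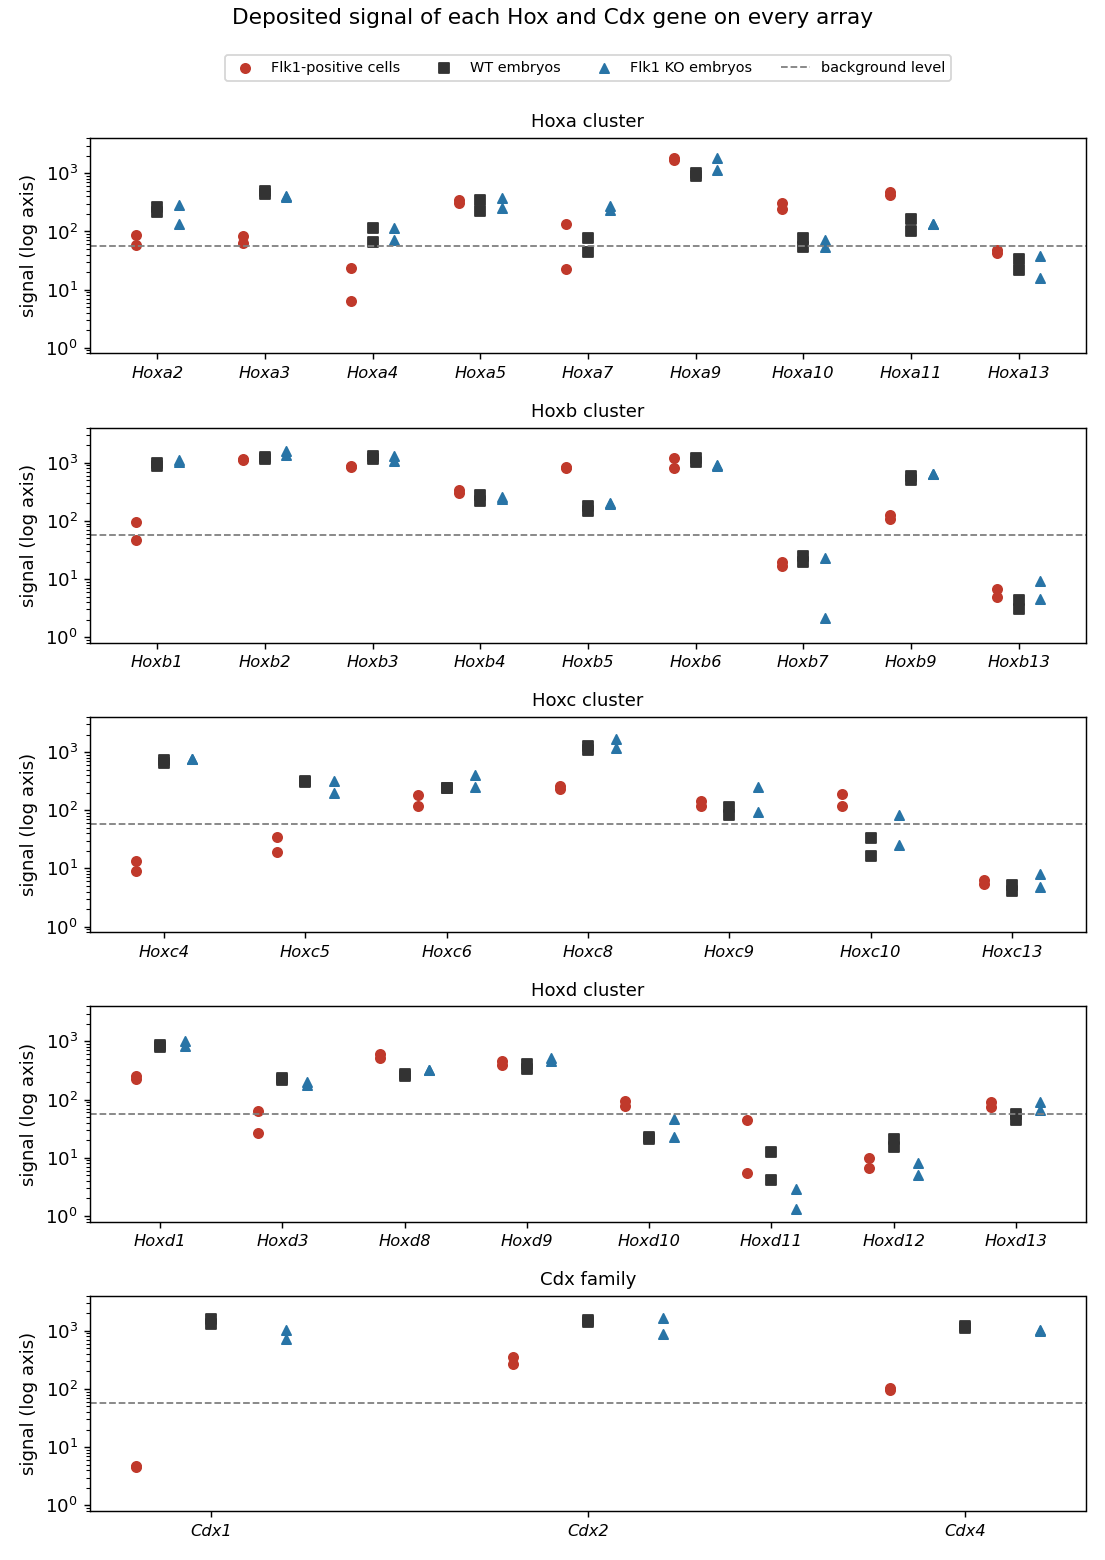
Deposited signal (log axis) of each of the 36 genes on every array, by cluster and paralogue number, with Flk1-positive cells as red circles, WT embryos as black squares, Flk1 KO embryos as blue triangles and the background level of 57.38 as a dashed line. In Cdx1, Hoxb1, Hoxc4 and Hoxc5 both red points lie far below the other 4, and in Hoxb5, Hoxa10 and Hoxa11 they lie above them.

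The Cdx genes were lower in Flk1-positive cells without exception. Cdx1, which is active in the posterior embryo and a target of retinoic acid, gave signals of 4.7 and 4.6 in the Flk1-positive cells against 1610.9 and 1333.0 in WT embryos. It was below background in these cells and at least 18.8-fold lower (limma adjusted p = 0.000456). Cdx4, an activator of trunk Hox genes, had signals of 103.0 and 95.3 against 1125.3 and 1211.0, a difference of -3.30 ± 0.13 (limma adjusted p = 0.000456). Both Flk1-positive arrays lay far below both WT arrays in these genes. Cdx2, needed for the trophectoderm and for elongation of the body, was lower too, with signals of 273.4 and 351.9 against 1439.1 and 1538.5. It differed by -2.19 ± 0.32 (limma adjusted p = 0.00765), and its second probe set by -2.30 ± 0.57 (limma adjusted p = 0.0375). Markers of the tail bud, where Cdx genes are active, mostly moved the same way. Of the 6 with a probe set of their own 5 were lower (83.3%, beside 17.5% over all genes). The remaining marker, Cyp26a1, lay the other way without a call, with signals of 1993.4 and 1806.2 against 1402.4 and 1378.1 (0.44 ± 0.13). The summed signal of those 6 was 2175.5 to 2457.9 in Flk1-positive cells, most of it from Cyp26a1, and 5344.8 to 5714 in WT embryos. Of these markers, Wnt3a, Fgf8 and Fgf17 were not above background in the cells. The part of the tail bud markers in the Cdx result was not tested.

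Genes of paralogue groups 1 to 4, which act in the hindbrain and neck, had a median difference of -1.66 over 10 genes. Beside them stood the neuroectoderm markers, with a summed signal of 257.39 to 413.34 in the Flk1-positive cells and 8654.4 to 8800 in WT embryos. In these cells 7 of the 9 were not above background (Sox1, Pax6, Otx2, Hes5, Zic1, Nkx6-1 and Olig2). Olig2 was not above background in WT or Flk1 KO embryos either. The part of the neuroectoderm markers in the result was not tested. Hoxb1, which specifies a single hindbrain segment, gave signals of 94.1 and 46.1 in the Flk1-positive cells against 889.1 and 996.2 in WT embryos. The gap was -3.44 ± 0.27 (limma adjusted p = 0.00106). Hoxc4, the first gene of its cluster, was at 9.0 and 13.2 against 733.7 and 651.1. It lay below background in the cells and was at least 9.02-fold lower (limma adjusted p = 0.000456). Hoxd1 had signals of 249.8 and 225.9 against 859.6 and 791.4 and differed by -1.71 ± 0.16 (limma adjusted p = 0.00195). Its level in Flk1-positive cells stayed above background. Hoxd3, a gene of neck vertebrae, had signals of 64.0 and 26.9 against 234.2 and 217.4. By group means it was at least 3.13-fold lower (limma adjusted p = 0.00725), though the signal of 64.0 lay above background.

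The Hoxa genes of this class were lower as well. Hoxa3, which is needed for the thymus and parathyroid, gave signals of 82.4 and 63.1 in the Flk1-positive cells against 494.5 and 446.8 in WT embryos, a difference of -2.39 ± 0.16 (limma adjusted p = 0.000682). This brightest Hoxa3 probe set is of a kind whose probes can match more than 1 transcript. Of the other Hoxa3 probe sets, 1 was lower too, by a smaller margin (-1.42 ± 0.22). Another close to background was not called (-0.02 ± 0.31) and 1 was too dim to test. Hoxa2, which patterns the second pharyngeal arch, had signals of 87.1 and 58.4 against 258.6 and 215.4 (-1.47 ± 0.35, limma adjusted p = 0.0322). Hoxa4 had 6.4 and 23.8 against 114.8 and 66.4 and was at least 1.39-fold lower (limma adjusted p = 0.0253). The groups did not overlap in either gene. The Hoxa2 call was lost whichever array of these groups was left out, and the Hoxa4 call without Flk1-positive replicate 1 or either WT array.

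Within the same class, 3 Hoxb genes that follow Hoxb1 were not called. Hoxb2, a hindbrain gene, had signals of 1135.3 and 1119.5 against 1229.7 and 1152.9 (-0.08 ± 0.14, limma adjusted p = 0.726). Hoxb3 differed by -0.51 ± 0.15 (limma adjusted p = 0.0626), and Hoxb4, known for expanding blood stem cells, by 0.35 ± 0.16 (limma adjusted p = 0.176). These values did not pass the test, and a missed threshold does not show that levels are equal. All 3 were well above background in every group.

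Of the middle genes, paralogue groups 5 to 8, 2 of 8 tested were higher and 2 lower, with a median of -0.06. That is 25% each way, beside 12.2% higher and 17.5% lower over all genes, and 8 genes are few to set against these shares. Summed somite and presomitic mesoderm markers were at 1889.5 to 2007 in the Flk1-positive cells and 6455 to 6653.4 in WT embryos, with Tbx6, Pax3 and Uncx below background in the cells, and their part was not tested. Hoxb5, the activator of the Flk1 promoter, gave signals of 798.6 and 826.8 in the Flk1-positive cells against 181.6 and 149.5 in WT embryos. It was 2.16 ± 0.14 higher (limma adjusted p = 0.000682), with no overlap. Hoxd8 was at 612.5 and 520.8 against 279.9 and 251.1 and was 1.03 ± 0.14 higher (limma adjusted p = 0.00639). Its second probe set, of a kind whose probes can match more than 1 transcript, differed by 0.53 ± 0.39 without a call, and the median over both was not called. Hoxc5 and Hoxc8, genes of the lower neck and chest, were lower. Hoxc5 had signals of 34.1 and 18.9 against 301.9 and 319.0 and was at least 4.20-fold lower (limma adjusted p = 0.00177), while a dim second probe set was not called (-0.27 ± 0.36). Hoxc8 had signals of 264.9 and 227.5 against 1277.8 and 1080.5, a difference of -2.16 ± 0.21 (limma adjusted p = 0.00187).

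The other middle genes were not called. Hoxb6 gave signals of 810.0 and 1190.9 in the Flk1-positive cells and 1039.1 and 1180.9 in WT embryos, with arrays that overlapped (-0.17 ± 0.21). Hoxa7 had the largest SE of the 31 genes, with signals of 22.9 and 136.6 in the Flk1-positive cells and 44.8 and 78.7 in WT embryos. Hoxc6 differed by -0.65 ± 0.29 (limma adjusted p = 0.161). Hoxa5, described as a brake on vessel growth, gave 0.20 ± 0.27 with its brightest probe set and -0.70 ± 0.21 with the other (limma adjusted p = 0.0621), so its direction depends on the probe set. The brightest ones of Hoxa5 and Hoxc6 are of a kind whose probes can match other transcripts.

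Posterior genes, paralogue groups 9 to 13, were the only class with more higher than lower calls. Of 10 tested, 4 were higher and 1 lower, with a median of 0.71. That is 40% and 10%, beside 12.2% and 17.5% over all genes, and 10 genes are few to set against these shares. Hoxb13, Hoxc13, Hoxd11 and Hoxd12 of this class were too dim to test. The 7 lateral plate and splanchnic mesoderm markers summed to 3133.7 to 3252 in the Flk1-positive cells and 5017.8 to 5239.6 in WT embryos. Hoxa10, which acts in the hindlimb and reproductive tract, gave signals of 302.6 and 242.1 in the Flk1-positive cells against 78.7 and 54.5 in WT embryos. It was 1.74 ± 0.21 higher (limma adjusted p = 0.00401). Hoxa11, a limb and kidney gene, had signals of 473.9 and 427.6 against 166.0 and 102.6 and was 1.63 ± 0.22 higher (limma adjusted p = 0.00579). Both Flk1-positive arrays lay above both WT arrays in these genes. Hoxc10 and Hoxd10, genes of the lumbar region, were not above background in WT embryos. Hoxc10 was at 116.5 and 188.8 against 16.1 and 33.0 and was at least 2.16-fold higher (limma adjusted p = 0.0305). Hoxd10 was at 94.3 and 77.2 against 22.4 and 20.7 and was at least 1.35-fold higher (limma adjusted p = 0.0136). The Hoxc10 call was lost whichever array of these groups was left out, and also with a pseudocount of 5.4. The Hoxd10 call was lost without Flk1-positive replicate 1 or either WT array.

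Hoxb9 was the 1 posterior gene that was lower, with signals of 106.4 and 127.4 in Flk1-positive cells against 507.8 and 581.1 in WT embryos (-2.03 ± 0.15, limma adjusted p = 0.000878). Its paralogues of group 9 were not called. Hoxa9 had signals of 1710.3 and 1854.1 against 1022.7 and 909.7, a difference of 0.87 ± 0.25 that narrowly missed the threshold (limma adjusted p = 0.0584), and its second probe set differed by 0.71 ± 0.28. Hoxc9 differed by 0.38 ± 0.42 and Hoxd9 by 0.18 ± 0.17. Hoxd13, a gene of digits and genitals, differed by 0.54 ± 0.19 (limma adjusted p = 0.0947) near the background level, and Hoxa13 was below background in every group. In their own single probe sets Hoxb7, Hoxb13, Hoxc13, Hoxd11 and Hoxd12 were below background in every group too, though a probe set shared by Hoxb8 and Hoxb7 had signals of 246.8 to 383.9.

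**Figure D2:**
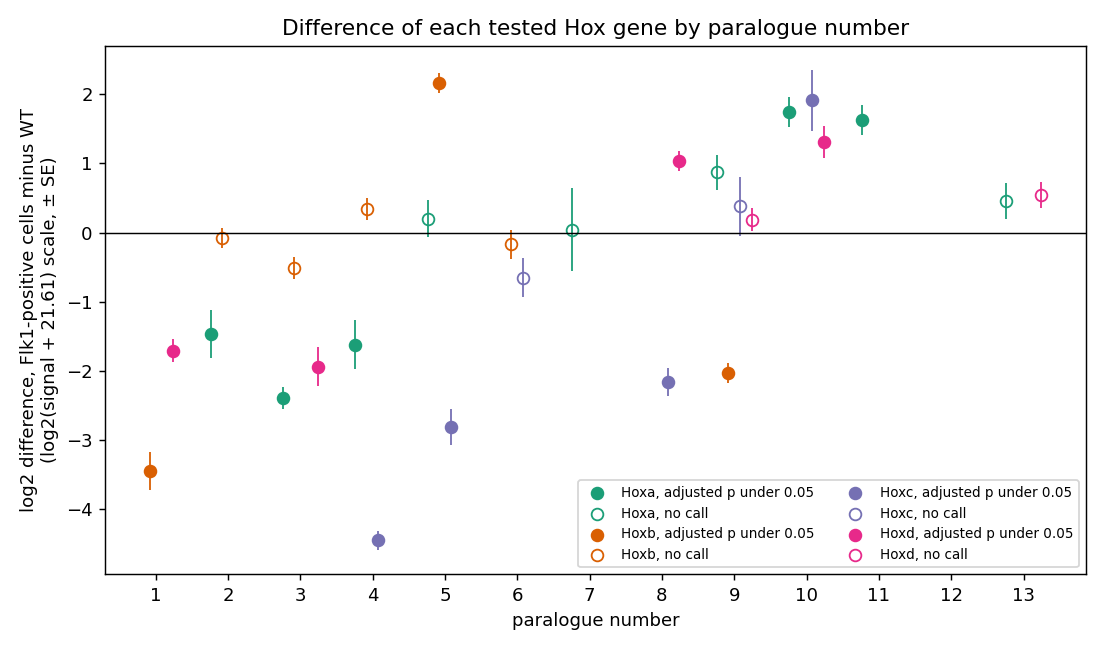
Log2 difference between Flk1-positive cells and WT embryos (vertical axis, ± SE, 2 arrays a group) of the 28 Hox genes tested, by paralogue number (horizontal axis) and cluster (colour), with filled points for adjusted p under 0.05. Filled points lie between -4.45 and -1.47 for paralogue groups 1 to 4, and those of Hoxa10, Hoxa11, Hoxc10 and Hoxd10 lie between 1.31 and 1.91.

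As a description over the 28 Hox genes tested, the difference correlated with the paralogue number (Pearson r = 0.583, Spearman rho = 0.645). For Flk1 KO against WT embryos, which shares the WT arrays, the values were 0.302 and 0.389. The genes share arrays, clusters and the filter on low signals, so they are not independent points. By cluster, 2 of 9 Hoxa genes were higher and 3 lower, 1 of 7 Hoxb genes was higher and 2 lower, 1 of 6 Hoxc genes was higher and 3 lower, and 2 of 6 Hoxd genes were higher and 2 lower. Beside 12.2% higher and 17.5% lower over all genes, Hoxb at 14.3% and Hoxc at 16.7% higher lie near the share over all genes. The Hoxc median was -1.41, against 0.20 for Hoxa, -0.17 for Hoxb and 0.36 for Hoxd. Paralogues with 1 number could differ. In group 5 Hoxb5 was higher and Hoxc5 lower, in group 8 Hoxd8 was higher and Hoxc8 lower, and in group 4 Hoxa4 and Hoxc4 were lower while Hoxb4 had no call. Differences between paralogues themselves were not tested.

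The second comparison, of Flk1 KO with WT embryos, asks what the loss of the receptor changes. No Hox or Cdx gene was called in either direction, of 31 tested (limma, smallest adjusted p = 0.451). At an unadjusted p under 0.05 there was 1 gene on each side. Over all 15205 genes 0% were higher and 0.132% lower by the adjusted test, and 2.66% and 3.65% by the unadjusted one. The median of the 31 genes was 0.14, against 0.0013 over all genes. The typical 95% interval reached 0.533 to either side of an estimate, so smaller shifts could not be resolved. These intervals are not adjusted for the number of tests, and much larger shifts could also go uncalled. That of Kdr did, at -3.10 ± 0.25 (limma adjusted p = 0.0516).

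The pair with the smallest p-values were Cdx1 and Hoxa7. Cdx1 had signals of 723.6 and 1041.8 in Flk1 KO embryos against 1610.9 and 1333.0 in WT embryos, without overlap. The difference was -0.74 ± 0.21, with an interval from -1.27 to -0.21 (limma adjusted p = 0.451). Hoxa7, a gene of the chest region, had signals of 276.3 and 229.4 against 44.8 and 78.7, also without overlap. It differed by 1.74 ± 0.60, with a wide interval from 0.24 to 3.25 (limma adjusted p = 0.531). Cdx4 had signals of 1023.5 and 989.2 against 1125.3 and 1211.0 (-0.21 ± 0.13), and Cdx2 had 879.3 and 1686.9 against 1439.1 and 1538.5 (-0.28 ± 0.32). Cdx2 was low on 1 of the 2 Flk1 KO arrays and above both WT arrays on the other.

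Genes with large differences in Flk1-positive cells had no call in Flk1 KO embryos. Hoxb1 had signals of 1022.1 and 1100.8, a difference of 0.17 ± 0.27 with an interval from -0.51 to 0.85. Hoxc4 had 758.0 and 768.5 (0.14 ± 0.14, interval from -0.22 to 0.49). Hoxb5 had 194.1 and 200.2 (0.23 ± 0.14, interval from -0.13 to 0.59). In these 3 genes both Flk1 KO arrays lay above both WT arrays by small margins. Hoxa10 had 53.7 and 70.1 (-0.07 ± 0.21), and Hoxa11 had 135.8 and 134.3 (0.04 ± 0.22). The 95% intervals of these 5 genes include 0. Hoxa9 had 1866.5 and 1138.1 (0.59 ± 0.25, limma adjusted p = 0.637).

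Arrays of both embryo groups did not overlap for 12 genes that were higher in Flk1 KO and 5 that were lower, 38.7% and 16.1% of the 31. Over all genes the shares were 19.1% and 18.1%. In paralogue groups 9 to 13 there were 5 of 10 such genes on the higher side (Hoxa9, Hoxb9, Hoxd9, Hoxd10 and Hoxd13) and none on the lower. None of their differences passed the test (adjusted p of 0.605 or above), and Hoxd10 was below background in both groups. Median centring of the arrays moved the median of all probe sets by 0.101 in this comparison and the median of the 31 genes to 0.24. Marker sums of the neuroectoderm (8119.4 to 8428.1 in Flk1 KO, 8654.4 to 8800 in WT) and the somites (6594.5 to 6693.3 and 6455 to 6653.4) lay near each other, but the 9 neuroectoderm markers had a median difference of 0.20, with arrays apart for 4 on the higher and 3 on the lower side, so the sum does not give the direction of each marker, and none was called. The sum of the 7 cardiomyocyte markers was 26238 to 38438 in Flk1 KO, where the 2 arrays lay far from each other, and 19199 to 19394 in WT. All 7 had arrays apart on the higher side, with a median of 0.72, and none was called (limma, smallest adjusted p = 0.338). The part of the heart in these values was not tested.

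**Figure D3:**
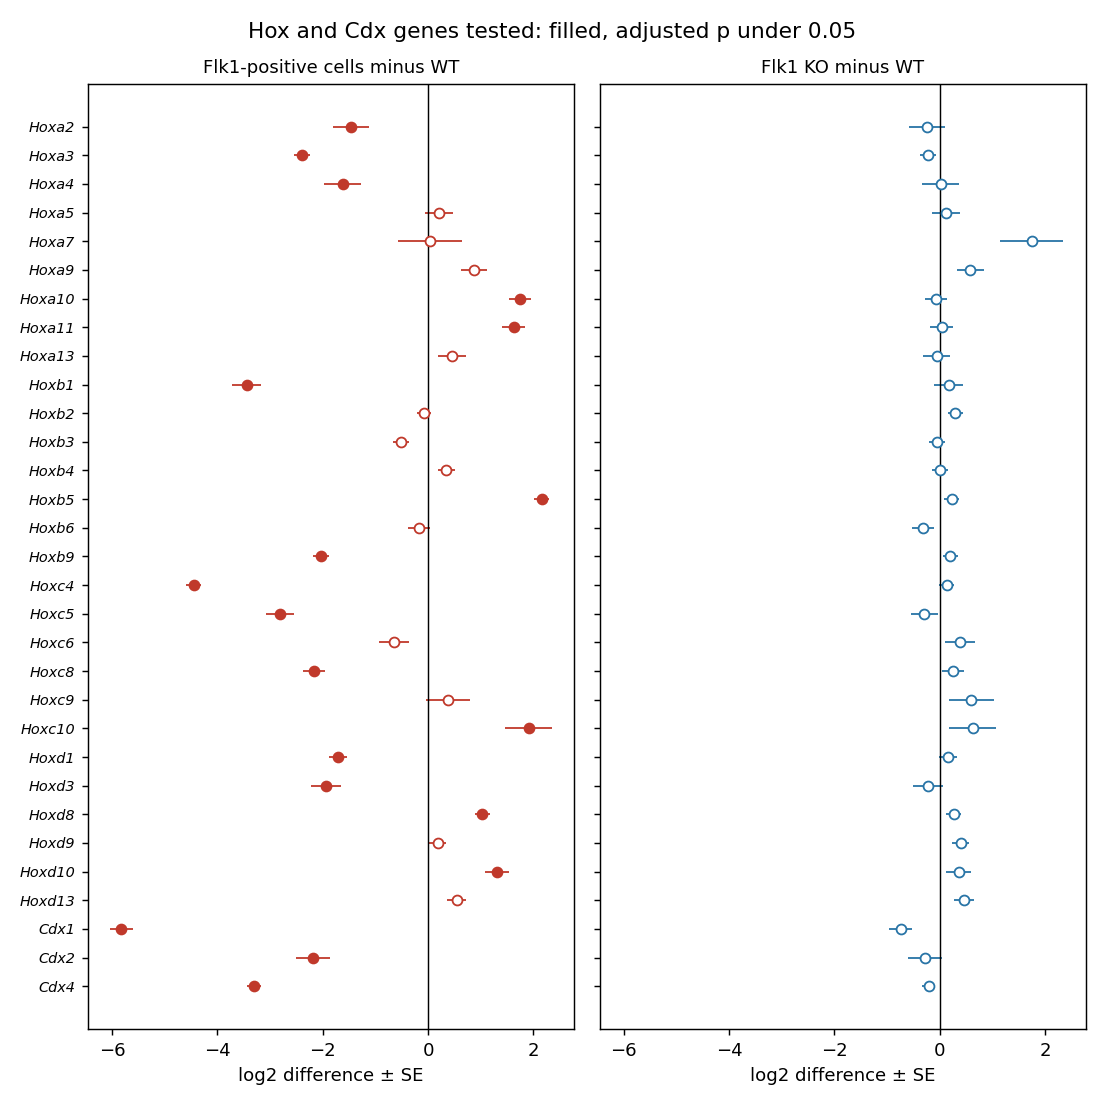
Log2 difference ± SE of the 31 genes tested, for Flk1-positive cells minus WT embryos (left) and Flk1 KO minus WT embryos (right), which share the same 2 WT arrays, with filled points for adjusted p under 0.05. Differences span -5.82 to 2.16 on the left, with 19 filled points, and -0.74 to 1.74 on the right, with none.

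Flk1-positive cells were also set against Flk1 KO embryos, in which endothelial markers were reduced. This comparison shares its arrays with both others and is no independent support for them. In all, 14 genes were lower and 5 higher, 45.2% and 16.1% of the 31, against 19.1% and 12.9% over all genes. Among the lower genes Hoxa2 lay close to the threshold (-1.23 ± 0.35, limma adjusted p = 0.0496). It was called in 8 of 11 alternatives other than those without an array, and most fits without an array lost the call. Over all alternatives Hoxa2 ranged from -1.70 to -0.76 and Hoxa4 from -2.35 to -0.84. Cdx1 was at least 11.3-fold lower, Hoxc4 at least 9.94-fold lower, Hoxb1 differed by -3.61 ± 0.27 and Hoxb5 by 1.93 ± 0.14. Hoxa10 (1.82 ± 0.21), Hoxa11 (1.59 ± 0.22), Hoxd8 (0.77 ± 0.14) and Hoxd10 (at least 1.35-fold) made up the other calls on the higher side. Of the 6 fits without an array, 3 kept the Hoxd8 call and 1 the Hoxd10 call, and with the median over probe sets Hoxd8 had a limma adjusted p of 0.184. Hoxc10 was not called here (limma adjusted p = 0.085). Hoxc6 was called in this comparison and not against WT embryos, with -1.04 ± 0.29 (limma adjusted p = 0.0469), and of its other probe sets none was called. This Hoxc6 call held in 1 of 6 fits without an array and in 4 of 11 other alternatives. The second Hoxa5 probe set was lower as well (-1.34 ± 0.21, limma adjusted p = 0.00818), unlike the brightest (0.08 ± 0.27). Without Flk1-positive replicate 1, or without Flk1 KO replicate 2, 3 genes in place of 5 were higher.

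Hox proteins bind DNA together with TALE homeodomain partners, of which 8 of 9 listed genes had a probe set with no other symbol. In Flk1-positive cells against WT embryos 1 was higher and 2 were lower (12.5% and 25%, beside 12.2% and 17.5% over all genes), with a median of -0.37. The share of higher genes is near that over all genes, and 8 genes are few for the other. Pknox2 had signals of 84.5 and 106.0 against 1306.6 and 1285.6 and differed by -3.50 ± 0.14 (limma adjusted p = 0.000456). Meis3 was lower by a smaller margin (-1.32 ± 0.16), and Pknox1 was higher (0.73 ± 0.19, limma adjusted p = 0.0415). Pbx2, Pbx3 and Meis1, which are expressed widely in the embryo, were not called (-0.07 ± 0.13, -0.44 ± 0.19 and -0.30 ± 0.13). Meis2 had the largest difference without a call, -1.02 ± 0.34, with arrays that did not overlap (limma adjusted p = 0.0846). No TALE gene was called between Flk1 KO and WT embryos, where over all genes 0% were higher and 0.132% lower. At such shares no call is the usual outcome for a short list, here and for the lists that follow.

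Genes known to act upstream of Hox and Cdx genes were mostly lower in Flk1-positive cells. Of 23 listed, 20 had a probe set of their own, and against WT embryos 12 were lower and 1 higher (60% and 5%, beside 17.5% and 12.2% over all genes), with a median of -1.79 beside -0.08 over all genes. Some of them, such as Wnt3a, Fgf8 and Tbx6, are also tail bud or somite markers. Aldh1a2, the enzyme that makes retinoic acid in the trunk, had signals of 208.5 and 162.3 against 3202.4 and 3090.6 (-3.94 ± 0.18, limma adjusted p = 0.000456). The transcription factors Sp8 and Sp5, which act in Wnt signalling, were at least 9.57-fold and 12.3-fold lower by group means. The bound for Sp5 is loose, since its Flk1-positive signals were 82.2, above background, and 8.1 (-4.13 ± 0.56). The Wnt ligand Wnt3a, which maintains posterior growth, was at least 4.52-fold lower, and Nr6a1, a regulator of trunk Hox genes, differed by -3.11 ± 0.13. Egr2, which drives Hox genes in the hindbrain, differed by -2.28 ± 0.17.

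Cyp26b1, an enzyme that breaks down retinoic acid, was the gene of this list that was higher, with signals of 362.9 and 280.5 in Flk1-positive cells against 95.3 and 119.6 in WT embryos (1.41 ± 0.30, limma adjusted p = 0.0253). Cyp26a1, of the same function, narrowly missed the threshold (0.44 ± 0.13, limma adjusted p = 0.0587). The retinoic acid receptor Rarb was lower (-1.30 ± 0.13, limma adjusted p = 0.00196), whereas Rara differed by -0.05 ± 0.16 and Rarg by -0.68 ± 0.27 without a call. None of the 20 genes was called between Flk1 KO and WT embryos. For example, Aldh1a2 had signals of 2560.7 and 3154.3 in Flk1 KO embryos (-0.15 ± 0.18).

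Polycomb and trithorax proteins keep Hox clusters silent or active. Of 19 listed genes 18 had a probe set of their own, and in Flk1-positive cells against WT embryos 8 were lower and none higher (44.4% and 0%, beside 17.5% and 12.2% over all genes), with a median of -0.50. Cbx7 was at least 3.21-fold lower, Cbx2 differed by -1.51 ± 0.18 and Jarid2 by -1.15 ± 0.16. Ezh2, the Polycomb methyltransferase, differed by -0.58 ± 0.15 (limma adjusted p = 0.0396). The core genes Eed and Rnf2 narrowly missed the threshold (-0.43 ± 0.12 and -0.56 ± 0.16, limma adjusted p = 0.0575 and 0.0568), with arrays that did not overlap. Suz12, Bmi1 and Kmt2a were not called (-0.06 ± 0.14, -0.12 ± 0.13 and -0.06 ± 0.18). Between Flk1 KO and WT embryos none of the 18 was called.

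Related homeobox genes outside the rule were split. Evx1, which neighbours the Hoxa cluster and marks the tail bud, gave signals of 135.0 and 113.2 in the Flk1-positive cells against 629.3 and 510.6 in WT embryos (-2.02 ± 0.17, limma adjusted p = 0.00142). Mnx1, a gene of notochord and motor neurons, was at least 2.27-fold lower, and Pdx1, the ParaHox gene of the pancreas, was at 79.3 and 71.1 in the Flk1-positive cells against 16.0 and 35.7 in WT embryos. Pdx1 reached the minimum signal for testing only through the Flk1-positive arrays, so its call is no support. Evx2, beside the Hoxd cluster, was not called (0.22 ± 0.28). Of the 6 listed, Gsx1 and Gsx2 were too dim to test.

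**Figure D4:**
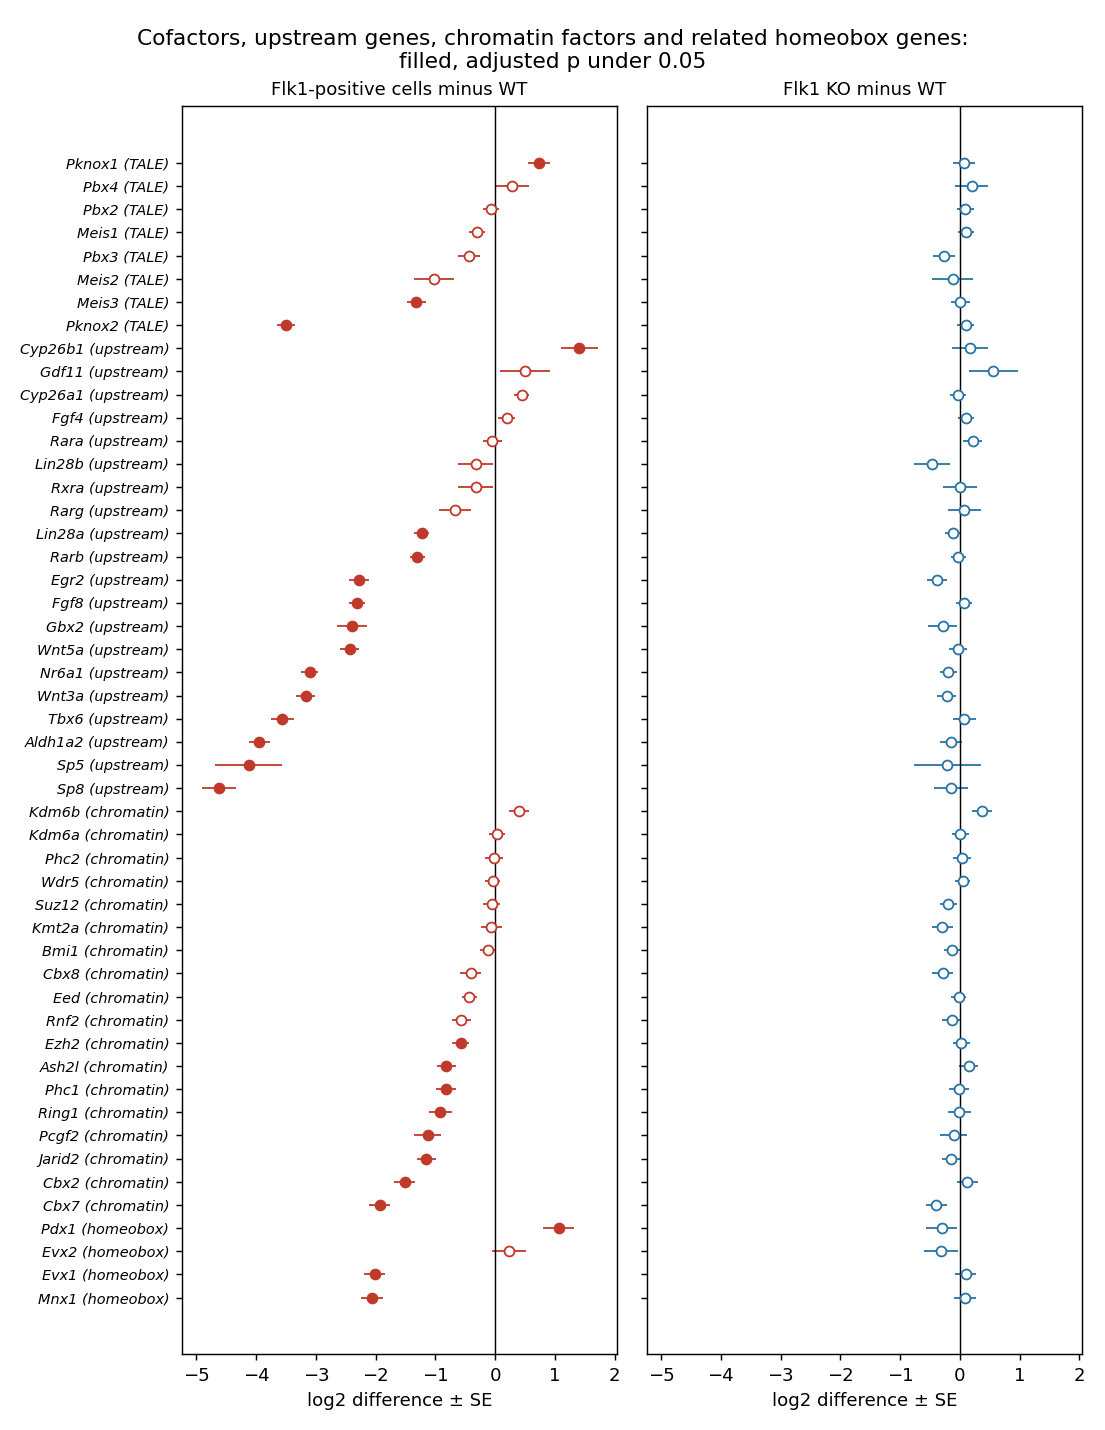
Log2 difference ± SE of TALE cofactors, upstream genes, chromatin factors and related homeobox genes, for Flk1-positive cells minus WT embryos (left) and Flk1 KO minus WT embryos (right), with filled points for adjusted p under 0.05. On the left the points reach from -4.62 (Sp8) to 1.41 (Cyp26b1), and on the right none is filled.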

How the data were processed

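Per the labels' protocols, RNA came from an RNeasy Micro kit and its biotin-labelled product was hybridised to Affymetrix arrays. The authors deposited a linear probe-set signal, and the design text names GeneSpring. The 2% trimmed mean was 500 on all 6 arrays and the lowest value 1, so the deposited signals were scaled and floored by a program that the sources used here do not name. The platform annotation gave 1 symbol to 34958 probe sets, several to 932 and none to 9211.

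Signals were transformed as log2(signal + 21.61), the 25th percentile of all values, on the deposited scale (array medians lay within 0.147, under a limit of 0.2). Leaving out 64 control probe sets and those with a mean below 21.61, 34621 probe sets were fitted with limma 3.58.1 in R 4.3.3 (lmFit, eBayes, two-sided, group as the only term, all 6 arrays, 3 residual and 2.44 prior degrees of freedom). P-values were adjusted over all probe sets (Benjamini-Hochberg, threshold 0.05). As background served the 95th percentile over 80 probe sets for olfactory or vomeronasal receptors. Named were genes called in any comparison, all Cdx genes, genes whose probe sets differed in call, and up to 3 called genes each way of every other list; further members were described after their values were seen. Members and lists were chosen with earlier results of these data known. On simulated data over 34621 probe sets, 96% of 4-fold and 13% of 2-fold changes were recovered for Flk1-positive cells against WT. For Flk1 KO against WT the shares were 98% and 19%. The changes lay in bright probe sets only, 100 for each fold, with 116 and 122 calls in all. In the data 3880 probe sets were higher and 4794 lower in Flk1-positive cells against WT, and 0 and 23 in Flk1 KO. The adjusted threshold depends on the number of calls, so the recovered shares do not give the power of the tests on the data. Alternatives were other pseudocounts, filters, scalings, variance priors, probe set choices, a replicate block, only the groups compared and leaving out each array. Array number limits the precision.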

Additional observations from a re-analysis of the deposited data

Results flagged for a closer look

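A transcript outside the rule stood out above the WT embryos, the Hoxa11 opposite-strand transcript Hoxa11os. Its signals were 196.5 and 149.9 on the Flk1-positive arrays, 3.4 and 20.6 on the WT arrays and 6.0 and 7.0 on the Flk1 KO arrays. The difference between Flk1-positive cells and WT embryos was 2.57 ± 0.28 on the log2 scale, and at least 2.45-fold since WT embryos were below background. It reached the minimum signal for testing only through the Flk1-positive arrays, so its test is no support. A second probe set of it lay near the floor of 1 on all arrays.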

How the results depend on the processing

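Of 38 called differences of the 21 named genes, 26 were called under all 17 alternatives, 32 under all but those leaving out an array, and none reversed. In Flk1-positive cells against WT embryos 5 to 7 genes were higher and 13 to 14 lower with all arrays, and 4 to 7 and 11 to 13 without single arrays. Against Flk1 KO embryos 4 to 6 were higher and 12 to 17 lower, and 3 to 5 and 10 to 13 without single arrays. Between Flk1 KO and WT embryos none was called under any alternative. The median over the genes tested, -0.17 against WT, was -0.11 with no filter on low values, -0.58 with a filter at the 50th percentile, -0.25 with the median over probe sets and -0.37 without _x_at and _s_at probe sets. Against Flk1 KO (-0.46) it was -0.22, -1.13, -0.63 and -0.89 with these, and -0.52 with median centring, which gave 0.24 for Flk1 KO against WT. The filters test other sets of genes; for the rest the cause was not tested. Without single arrays the medians ranged from -0.54 to -0.087, from -0.85 to -0.43 and, for Flk1 KO against WT, from 0.060 to 0.22. Signs turned in uncalled differences only. Against WT, Hoxa5 was at -0.25 with the median over probe sets and -0.70 without _x_at and _s_at probe sets; against Flk1 KO these gave -0.63 and -1.34, the last 2 below the threshold (adjusted p = 0.0457 and 0.00827). Without single arrays Hoxa5 ranged from -0.076 to 0.48 and from -0.19 to 0.35. For Flk1 KO against WT, Hoxa10 was at 0.036 with quantile normalization and 0.029 with median centring, and Hoxc5 at 0.27 with the median over probe sets. Without single arrays Cdx2 ranged from -0.74 to 0.18, Hoxa2 from -0.71 to 0.23, Hoxa4 from -0.29 to 0.34, Hoxa5 from -0.16 to 0.40, Hoxa10 from -0.27 to 0.13, Hoxa11 from -0.26 to 0.33, Hoxc5 from -0.60 to 0.013 and Hoxd1 from -0.0070 to 0.32. Array deviations of equal replicate numbers correlated at 0.00495 to 0.0267, so no shift shared by equal numbers was seen. Whether samples were collected or processed in pairs cannot be told from this. With a replicate block 5 genes were higher and 13 lower against WT, the Hoxc10 call being lost. Arrays number 2 a group, and signals near 57.38 cannot be told from background.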

Other observations

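Other transcripts of the Hox clusters lie outside the rule. The Hoxb5 opposite-strand transcript Hoxb5os went the other way from Hoxb5, with signals of 531.0 and 597.8 in the Flk1-positive cells against 2513.1 and 3027.3 in WT embryos (-2.25 ± 0.21, limma adjusted p = 0.0018). In Flk1 KO embryos it was at 5132.1 and 3672.8, above both WT arrays, with a difference of 0.65 ± 0.21 that did not pass the test (limma adjusted p = 0.502). Hoxd3os1 was not called in its brighter probe set (-0.34 ± 0.20).

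Probe sets annotated to more than 1 Hox gene cannot be assigned to either. Of 2 shared by Hoxd4 and Hoxd3, the brighter gave signals of 135.4 and 156.7 in the Flk1-positive cells against 458.5 and 477.5 in WT embryos (-1.55 ± 0.20, limma adjusted p = 0.00482), and the other differed by -0.75 ± 0.40. The 1 shared by Hoxb8 and Hoxb7 had 323.2 and 331.6 against 249.7 and 305.4 (0.23 ± 0.23).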
